A study of Mus musculus with 5 samples.

Results

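The genes of the T cell receptor complex and its coreceptors were described in bulk RNA sequencing of the brain hemisphere that carried a GL261 tumor. The 10 genes Cd3e, Cd3d, Cd3g, Cd4, Cd8a, Cd8b1, Cd2, Cd28, Foxp3 and Trac were chosen by name, and all 10 were found among the 55573 genes of the count tables. GL261 is a mouse glioma line, and here it carried a luciferase and mKate2 reporter. The cells were placed in the right caudate-putamen of C57BL/6 females aged 7 to 8 weeks at inoculation. All mice therefore carried the tumor and its reporter. The 3 vehicle mice were given a dilution buffer. The 2 UMBO mice had ultrasound-mediated blood-brain barrier opening, in which pulsed ultrasound is applied while microbubbles circulate. Treatment was on days 21 and 24, and the right hemisphere was taken 24 h after the last session. Each library is 1 mouse, and each is a mixture of tumor, brain and immune cells.

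T cells recognize antigen through a receptor made of an alpha and a beta chain, which binds a peptide held by an MHC molecule on another cell. The receptor chains have no signaling tail of their own, so the signal passes through the CD3 chains. The coreceptors CD4 and CD8 bind MHC class II and class I and bring the kinase Lck to the complex. The normal brain holds few T cells, and tumors such as GL261 are entered by them from the blood. Several of these genes are not limited to T cells. A subset of mouse dendritic cells carries CD4 or the CD8 alpha chain, and NK cells and mouse B cells carry CD2.

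Libraries held 59736771 to 86164159 counts in all. Values are given as CPM, read counts scaled to a common library size after TMM normalization, which allows for libraries of different composition. Of the 55573 genes, 23592 had enough counts to be tested with edgeR's quasi-likelihood test, and all 10 T cell genes were among them. No gene passed an edgeR adjusted p under 0.05 (0% of genes tested), and 7.37% had an unadjusted p under 0.05. UMBO replicate 2 stood apart from the other libraries across the whole table, and 40.4% of genes tested were highest in it. It had the highest summed level of the proliferation genes, at 499 CPM, and the lowest summed level of the neuron markers, at 2433 CPM. Vehicle replicate 1 had the highest sum for neuron markers, at 8140 CPM. The fold changes of the 10 genes are therefore also given without UMBO replicate 2. In bulk tissue, fewer T cells and less RNA per T cell cannot be told apart.

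With UMBO, 9 of the 10 T cell genes had a positive log2 fold change and Cd4 a negative one, while 50.9% of all genes tested were positive. The median over the 10 genes was 0.88 on the log2 scale, against 0.01 for all genes tested. None of the 10 passed the test between the groups. In edgeR's quasi-likelihood test 0 of 10 had an adjusted p under 0.05 and 0 of 10 an unadjusted p under 0.05, while 5.30% of all genes had such a p with a higher and 2.06% with a lower level. With the DESeq2 Wald test 0 of 10 had an adjusted p under 0.05 (0.168% of genes with an adjusted p) and 1 of 10 an unadjusted one (6.77% of genes), that 1 being Cd4 (DESeq2 unadjusted p 0.0407). The lowest adjusted p among the 10 was 0.497 in edgeR, for Cd4, Cd28 and Foxp3. UMBO replicate 2 was the highest of the 5 libraries for 9 of the 10 genes, and 0 of 10 were higher in UMBO replicate 1 than in UMBO replicate 2, against 50.1% of all genes tested. When that library was left out, 1 of the 10 genes still had a positive log2 fold change, and the median over the 10 genes was -0.89.

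**Figure D1:**
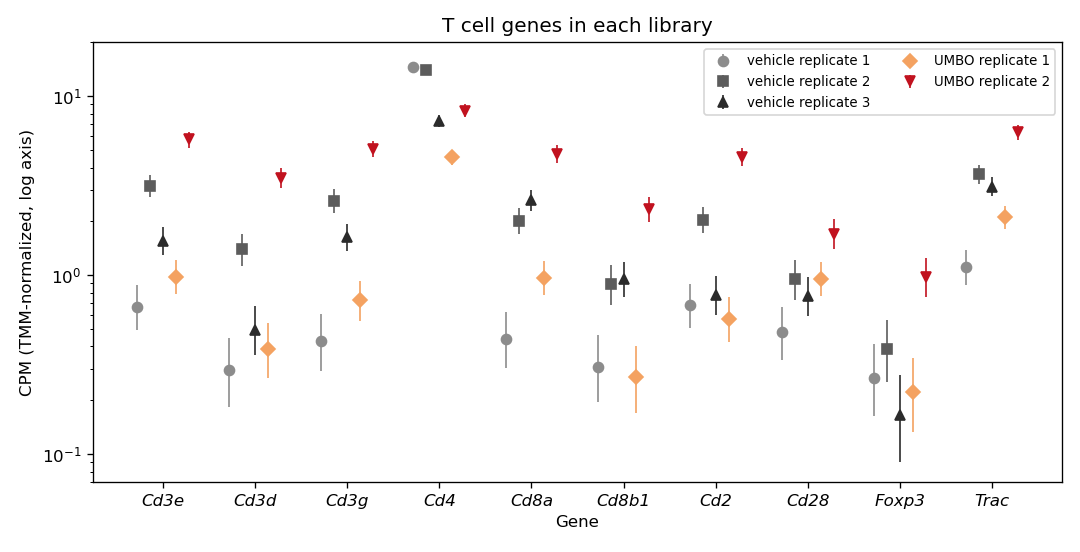
CPM of the 10 T cell genes in each of the 5 libraries, on a log axis, with 95% Poisson intervals of the counts as bars. UMBO replicate 2 is the highest library for 9 genes, while Cd4 is highest in vehicle replicates 1 and 2, at 14.6 and 14 CPM.

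The CD3 chains carry the signal of the receptor, and their genes lie together on chromosome 9 of GRCm38. Cd3g (44969572 to 44980431) is read from the reverse strand and Cd3d (44981786 to 44987339) from the forward strand, and their starts lie 1355 bp apart. Cd3e (44998740 to 45009627), is read from the reverse strand towards Cd3d, and the ends of the pair lie 11401 bp apart. RefSeq windows of 300 bases around the start of transcription (GRCm38.p6) matched 5 of the 10 genes, Cd3e, Cd3d, Cd3g, Cd8a and Foxp3. The windows of the 3 CD3 genes are shown because these genes kept the same order across the libraries, and that of Cd8a because the library order of this coreceptor gene differed from theirs. Each is written 5′ to 3′ on the gene's own strand, and capitals mark matches on either strand to the letters CAGGAA, a core of ETS factor sites, or TGACGT, a part of the cyclic AMP response element.
Cd3e, chr9:45009562-45009861, reverse strand: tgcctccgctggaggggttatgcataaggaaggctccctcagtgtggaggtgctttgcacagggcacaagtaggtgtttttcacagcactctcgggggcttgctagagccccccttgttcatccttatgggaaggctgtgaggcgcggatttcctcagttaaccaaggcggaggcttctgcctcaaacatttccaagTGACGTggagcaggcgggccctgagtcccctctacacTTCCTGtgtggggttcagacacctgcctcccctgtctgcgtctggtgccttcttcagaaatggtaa
Cd3d, chr9:44981536-44981835, forward strand: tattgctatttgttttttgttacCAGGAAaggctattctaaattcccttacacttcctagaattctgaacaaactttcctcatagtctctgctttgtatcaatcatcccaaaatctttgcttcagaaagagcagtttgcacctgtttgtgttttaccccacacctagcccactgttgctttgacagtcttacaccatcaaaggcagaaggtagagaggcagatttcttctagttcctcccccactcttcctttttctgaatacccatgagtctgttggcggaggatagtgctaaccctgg
Cd3g, chr9:44980382-44980681, reverse strand: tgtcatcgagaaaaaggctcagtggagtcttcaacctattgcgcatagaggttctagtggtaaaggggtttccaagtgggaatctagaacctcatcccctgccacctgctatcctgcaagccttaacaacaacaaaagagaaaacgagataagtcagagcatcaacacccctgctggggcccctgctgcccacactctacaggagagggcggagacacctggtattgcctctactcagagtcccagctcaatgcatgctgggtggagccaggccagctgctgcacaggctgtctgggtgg
Cd8a, chr6:71373177-71373476, forward strand: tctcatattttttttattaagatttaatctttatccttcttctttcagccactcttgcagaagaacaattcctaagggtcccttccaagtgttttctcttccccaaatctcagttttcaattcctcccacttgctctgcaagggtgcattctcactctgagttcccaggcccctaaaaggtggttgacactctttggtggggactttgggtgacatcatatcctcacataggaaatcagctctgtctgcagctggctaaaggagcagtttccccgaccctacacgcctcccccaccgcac

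The Cd3e window held CAGGAA on the opposite strand, at position -16 from the start of transcription, and TGACGT on the gene's strand at -53. The Cd3d window held CAGGAA at -227. Neither motif was found in the Cd3g or Cd8a windows. Among all 32851 RefSeq windows of this length, 30.6% held CAGGAA and 7.51% held TGACGT. The letters TATAAA were in none of the 4 windows shown, at -32 in a Foxp3 window and in 13.6% of all windows, and TGTGGT, a core of RUNX factor sites, was in none of the 4 and in 16.8% of all windows. The GC content was 56.7% for Cd3e, 42.3% for Cd3d, 54.0% for Cd3g and 46.7% for Cd8a, against a median of 52.7% over all windows. These matches describe the letters only.

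Cd3e, the epsilon chain, was at 0.669, 3.16 and 1.56 CPM with vehicle and at 0.983 and 5.74 CPM with UMBO, values here and below being in replicate order. UMBO replicate 1 lay below 2 of the 3 vehicle libraries, so the groups overlapped. The group means were 1.80 ± 1.26 CPM (SD, n = 3) and 3.36 ± 3.37 CPM (SD, n = 2), a log2 fold change of 0.90 with a standard error of 0.880 (edgeR adjusted p 0.592).

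Cd3d, the delta chain, was at 0.294, 1.39 and 0.496 CPM with vehicle and at 0.386 and 3.51 CPM with UMBO. It had the largest log2 fold change of the 10 genes, 1.42 with a standard error of 1.01 (edgeR adjusted p 0.512), and the groups overlapped. Cd3g, the gamma chain, was at 0.428, 2.61 and 1.63 CPM with vehicle and at 0.725 and 5.08 CPM with UMBO, a log2 fold change of 0.90 with a standard error of 0.968. All 3 chains showed the same order of libraries, with UMBO replicate 2 highest, then vehicle replicates 2 and 3, UMBO replicate 1 and vehicle replicate 1. This order was also that of Trac, and 1.99% of all genes tested showed it.

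The difference between mice of the same group was larger than the difference between groups. Cd3e was 5.84-fold higher in UMBO replicate 2 than in UMBO replicate 1 and 4.73-fold higher in vehicle replicate 2 than in vehicle replicate 1, while the group means differed 1.87-fold. For Cd3d these values were 9.10-fold, 4.74-fold and 2.68-fold, and for Cd3g 7.01-fold, 6.10-fold and 1.87-fold. When UMBO replicate 2 was left out, Cd3e had a log2 fold change of -0.87, Cd3d of -0.91 and Cd3g of -1.10. The antisense gene Gm48719 overlaps 135 bp of Cd3e exons (3.31% of their length) and had at most 4 counts in a library.

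Trac (chromosome 14, 54220521 to 54224206, forward strand), the constant segment of the receptor's alpha chain, was at 1.11, 3.66 and 3.13 CPM with vehicle and at 2.12 and 6.31 CPM with UMBO. The groups overlapped, and the log2 fold change was 0.67 with a standard error of 0.653 (edgeR adjusted p 0.590). The spread within the UMBO group was narrower than for the CD3 chains, at 2.98-fold. Without UMBO replicate 2 the log2 fold change was -0.32.

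The variable segments, which in each T cell clone are joined to a constant segment of the same chain, gave a readout that the 10 genes do not include. Over 170 variable segment genes of the receptor loci the counts summed to 90, 86 and 82 with vehicle and to 67 and 123 with UMBO. These counts fell on 29, 36 and 29 segments with vehicle and on 26 and 38 with UMBO, and the libraries differ in depth. No segment had more than 12 counts in a library among the 5 with most counts, Trbv13-2, Trbv1, Trbv29, Trgv2 and Trbv3. The 128 alpha chain (Trav) segments, the ones that join Trac, summed to 42, 28 and 43 counts with vehicle and to 34 and 35 with UMBO. The 35 beta chain (Trbv) segments summed to 45, 51 and 30 and to 21 and 75. The summed level of all 170 segments per Trac level was 1.08 in vehicle replicate 1 and lay between 0.298 and 0.370 in the other 4 libraries. For the Trav segments alone it was 0.506 in vehicle replicate 1 and lay between 0.0848 and 0.188 in the other 4. Thus the variable segments were not low in vehicle replicate 1, where Trac was lowest. Segments of one family are similar and can share reads.

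Cd8a and Cd8b1 encode the alpha and beta chains of the CD8 coreceptor of cytotoxic T cells and lie 35933 bp apart on chromosome 6. Cd8a (71373427 to 71379173, forward strand) was at 0.441, 2.02 and 2.62 CPM with vehicle and at 0.971 and 4.76 CPM with UMBO. Cd8b1 (71322788 to 71337494, forward strand) was at 0.308, 0.890 and 0.957 CPM with vehicle and at 0.269 and 2.34 CPM with UMBO. For both genes vehicle replicate 3 was the highest vehicle library, whereas for the CD3 chains it was vehicle replicate 2, and the groups overlapped. Read counts of Cd8a were 168% of those of Cd3e in vehicle replicate 3 and 63.9% in vehicle replicate 2. The log2 fold change was 0.75 (standard error 0.894) for Cd8a and 0.85 (standard error 0.912) for Cd8b1, with edgeR adjusted p of 0.652 and 0.622. Leaving out UMBO replicate 2 gave -0.81 and -1.41.

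Cd4 (chromosome 6, 124864692 to 124888221, reverse strand), the coreceptor of helper and regulatory T cells, did not follow the other genes. It was at 14.6, 14 and 7.31 CPM with vehicle and at 4.56 and 8.31 CPM with UMBO. Vehicle replicate 1, lowest for the CD3 chains, was the highest library for Cd4, and UMBO replicate 2 lay above vehicle replicate 3, so the groups overlapped. The means were 11.96 ± 4.04 CPM (SD, n = 3) and 6.43 ± 2.65 CPM (SD, n = 2), and the log2 fold change was -0.90 with a standard error of 0.421 (edgeR unadjusted p 0.0777, adjusted p 0.497). Cd4 kept a negative log2 fold change with each library left out in turn, from -1.39 without UMBO replicate 2 to -0.55 without UMBO replicate 1, with edgeR adjusted p between 0.358 and 1.00. The number of Cd4 reads per Cd3e read was 21.8 in vehicle replicate 1, 4.43 and 4.69 in vehicle replicates 2 and 3, 4.64 in UMBO replicate 1 and 1.45 in UMBO replicate 2. No annotated gene shares exonic sequence with Cd4.

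Neuron and dendritic cell markers were set beside Cd4. The summed level of the 6 neuron markers was 8140, 5164 and 5583 CPM with vehicle and 5492 and 2433 CPM with UMBO. It was highest in vehicle replicate 1 like Cd4, but the rest of the order differed. The neuron sum was lowest in UMBO replicate 2, and Cd4 was lowest in UMBO replicate 1. The 6 dendritic cell markers summed to 26.7, 33.8 and 32.6 CPM with vehicle and to 30.4 and 43.3 CPM with UMBO, and their members did not move together. Itgax (CD11c), which macrophages also carry, was lowest in vehicle replicate 1 and highest in UMBO replicate 2, at 2.51 and 28.3 CPM. Flt3, a growth factor receptor of dendritic cells and their precursors, was at 12.1, 9.98 and 15.9 CPM with vehicle and at 9.89 and 6.34 CPM with UMBO, so that both UMBO libraries lay below, UMBO replicate 1 only narrowly. Zbtb46, a transcription factor of dendritic cells, was lowest in UMBO replicate 2, at 6.28 CPM. The remaining markers Xcr1, Clec9a and Cd209a were highest in UMBO replicate 2, at 0.73, 0.82 and 0.82 CPM. Of the 6 dendritic cell markers, 4 had a positive log2 fold change and 2 a negative one. No marker of either list was at 0 in any library. The part of neurons or dendritic cells in the Cd4 level was not tested. Trbc2, a constant segment of the receptor's beta chain, was also high in vehicle replicate 1, though highest in UMBO replicate 2. It was at 7.34, 6.72 and 2.61 CPM with vehicle and 2.14 and 7.47 CPM with UMBO. Its near-identical neighbor Trbc1 can share its reads. Cd6, a proximal signaling gene, had the same library order as Cd4, at 3.72, 2.49 and 1.56 CPM with vehicle and 0.948 and 2.44 CPM with UMBO. Trat1 and Sla2 of that list were also highest in vehicle replicate 1, at 1.685 and 1.15 CPM. By contrast, 13 of the 17 tested genes of that list were highest in UMBO replicate 2. Trbc2, Cd6, Trat1 and Sla2 were singled out after their values were seen.

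**Figure D2:**
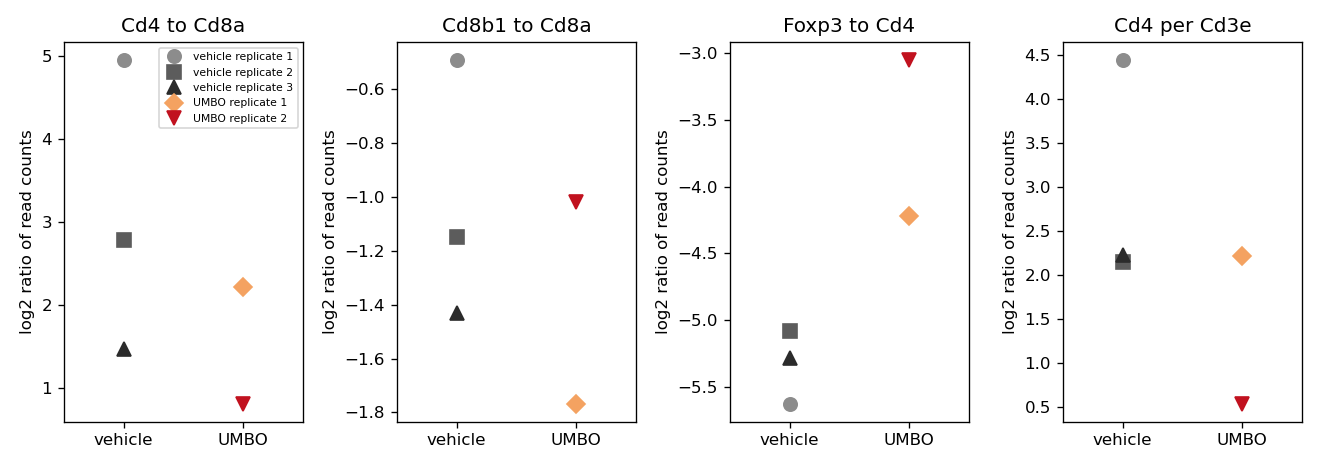
Log2 ratios of read counts in each library for Cd4 to Cd8a, Cd8b1 to Cd8a and Foxp3 to Cd4 (2 counts added to each gene) and for Cd4 per Cd3e read, by group. Both UMBO libraries lie above the 3 vehicle libraries for Foxp3 to Cd4, and the groups overlap in the other panels.

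Ratios within a library do not depend on how libraries are scaled, and 3 were compared between the groups after adding 2 counts to each gene. The exact 2-sided permutation test over the 5 libraries has 10 possible groupings and cannot give a p below 0.1. Cd4 to Cd8a was 31.2, 6.86 and 2.77 with vehicle and 4.61 and 1.74 with UMBO, a log2 difference of -1.57 (exact permutation p = 0.4, adjusted over the 3 ratios 0.5). It was -0.62 without vehicle replicate 1 and -2.37 without vehicle replicate 3. Cd8b1 to Cd8a was 0.714, 0.449 and 0.371 with vehicle and 0.294 and 0.494 with UMBO, a log2 difference of -0.37 (exact permutation p = 0.5, adjusted 0.5).

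The ratio of Foxp3 to Cd4 was higher in both UMBO libraries, at 0.0536 and 0.121, than in the 3 vehicle libraries, at 0.0202, 0.0296 and 0.0258. The log2 difference was 1.69 (exact permutation p = 0.1, the smallest the design allows, adjusted 0.3). It lay between 1.11 and 2.28 with each library left out in turn, both ends coming from leaving out a UMBO library. With a vehicle library left out the exact permutation p was 0.333, the smallest that such a design allows. In UMBO replicate 1 the Foxp3 level lay within the vehicle range and the Cd4 level below it. Read counts of Foxp3 were 40%, 12.2% and 10.6% of those of Cd3e with vehicle. They were 22.6% and 17.0% with UMBO, inside the vehicle range.

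Foxp3 (chromosome X, 7573644 to 7595245, forward strand), the transcription factor that defines regulatory T cells, was the rarest of the 10 genes, with 20, 26 and 14 counts with vehicle and 19 and 64 with UMBO. These are 0.267, 0.386 and 0.165 CPM with vehicle and 0.222 and 0.977 CPM with UMBO. The 95% Poisson interval was 0.134 to 0.347 CPM in UMBO replicate 1, where it overlapped that of every vehicle library, and 0.753 to 1.25 CPM in UMBO replicate 2, which lay above all of them. Such intervals cover counting error only. The log2 fold change was 1.13 with a standard error of 0.706 (edgeR adjusted p 0.497) and -0.28 without UMBO replicate 2. Foxp3 shares 853 bp of exonic sequence with Flicr on the same strand, 590 bp with Ccdc22, 373 bp with Gm36995 and 266 bp with Ppp1r3f on the other strand, and whether the counting used strand is not given in the sources used here. Ccdc22 was at 0.896, 1.71 and 1.06 CPM with vehicle and 1.19 and 2.37 CPM with UMBO, more than Foxp3 in every library. Ppp1r3f was also above Foxp3 in every library. Unlike Foxp3 and Ccdc22, Ppp1r3f and Flicr were lowest in UMBO replicate 2, at 2.0 and 0.137 CPM. How many reads the genes share was not tested.

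Cd28 (chromosome 1, 60716800 to 60773359, forward strand), the main costimulatory receptor of naive T cells, was the only one of the 10 genes with both UMBO libraries above every vehicle library. It was at 0.481, 0.949 and 0.768 CPM with vehicle and at 0.959 and 1.71 CPM with UMBO. The gap between vehicle replicate 2 and UMBO replicate 1 was far smaller than their 95% Poisson intervals, 0.731 to 1.21 CPM and 0.763 to 1.19 CPM. The log2 fold change was 0.86 with a standard error of 0.444 (edgeR adjusted p 0.497), and Cd28 was the 1 gene whose log2 fold change stayed positive without UMBO replicate 2, at 0.39. A share of 1 in 10 genes without overlap is close to the 11.5% of all genes tested with both UMBO libraries above.

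Cd2 (chromosome 3, 101275899 to 101287939, reverse strand), an adhesion receptor that binds CD48 in the mouse, was at 0.682, 2.05 and 0.780 CPM with vehicle and at 0.573 and 4.58 CPM with UMBO. UMBO replicate 1 was the lowest of all 5 libraries and UMBO replicate 2 the highest, a 7.99-fold gap within the group. The log2 fold change was 1.14 with a standard error of 0.902 (edgeR adjusted p 0.535) and -1.02 without UMBO replicate 2.

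**Figure D3:**
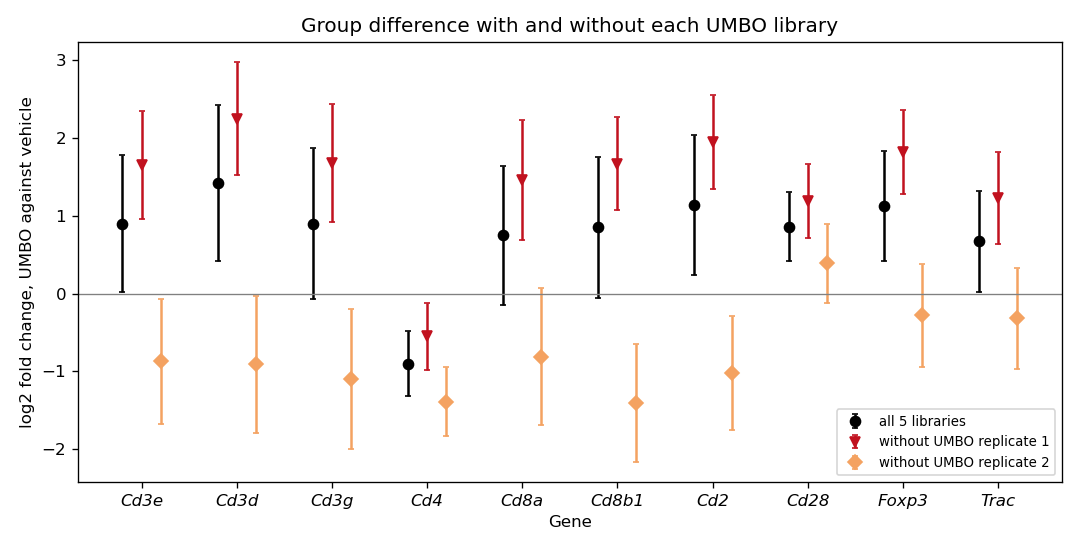
Log2 fold change of each T cell gene (UMBO against vehicle) with its standard error, from edgeR, with all 5 libraries and with either UMBO library left out. Without UMBO replicate 2, Cd28 at 0.39 is the only gene above 0, and with each UMBO library left out Cd4 stays below 0.

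Scaled to the length of their exons, the 10 genes differed widely in level. Trac was highest, with a mean over the 5 libraries of 3.49 CPM per kb (range 1.19 to 6.74), followed by Cd4 at 2.42 (1.13 to 3.62) and Cd2 at 0.995 (0.329 to 2.63). Cd3d, Cd8b1, Cd3g, Cd8a and Cd3e came next, with means of 0.670, 0.642, 0.641, 0.595 and 0.594 CPM per kb. Cd28 at 0.159 and Foxp3 at 0.0882 were lowest. Within a library, Cd2 was above Cd3d, Cd3e above Cd28 and Cd28 above Foxp3 in 5 of 5 libraries, and Trac was above Cd4 and Cd4 above Cd2 in 4 of 5. From Cd3d to Cd3e, each gene was above the next in only 2 or 3 of 5 libraries, so these neighbors did not differ beyond their spread.

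The level per leukocyte transcript was set beside the level per library. Ptprc (CD45), carried by all white blood cells and microglia, was at 8.33, 16.5 and 15.2 CPM with vehicle and at 16.4 and 31.0 CPM with UMBO. Read counts of Cd3e were 8.03%, 19.2% and 10.3% of those of Ptprc with vehicle and 6.00% and 18.6% with UMBO. By this measure UMBO replicate 2 lay next to vehicle replicate 2 instead of above it. Read counts of Cd8a were 5.30%, 12.3% and 17.3% of those of Ptprc with vehicle and 5.93% and 15.4% with UMBO, inside the vehicle range. Those of Cd4 were 175%, 85.1% and 48.1% with vehicle and 27.9% and 26.8% with UMBO, so that both UMBO libraries lay below all vehicle libraries. Ptprc itself had a log2 fold change of 0.83, which lowers such a ratio with UMBO, and the CPM of Cd4 overlapped between the groups. The share of all genes whose ratio to Ptprc separates the groups was not computed.

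The genes whose profile over the 5 libraries was nearest to the mean of Cd3e, Cd3d and Cd3g were Gimap3, Gm7043, Ccl5, Icos and Cxcl9. The root mean square distance, taken on log2 CPM centered on each gene's mean, was 0.141, 0.180, 0.180, 0.201 and 0.214, while the CD3 genes themselves lay at 0.104 (Cd3e), 0.203 (Cd3g) and 0.228 (Cd3d). Gimap3, a GTPase of lymphocytes, was at 1.19, 4.57 and 2.35 CPM with vehicle and 1.60 and 9.76 CPM with UMBO. Ccl5, a chemokine of activated T and NK cells, was at 1.58, 11.2 and 4.24 CPM and at 2.42 and 19.4 CPM. Cxcl9, an interferon-induced chemokine that binds the chemokine receptor CXCR3 of T cells, was at 3.22, 18.5 and 7.48 CPM and at 6.79 and 32.8 CPM. Icos is a costimulatory receptor of activated T cells and Gm7043 a processed pseudogene. Among the other members the distance to this profile was 0.353 for Cd2, 0.436 for Cd8b1, 0.475 for Trac, 0.518 for Cd8a, 0.716 for Foxp3, 0.759 for Cd28 and 1.31 for Cd4. Cd4 was thus the farthest of the 10.

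Of the further T cell lists, the partner chains of the receptor had 5 of 6 tested genes with a positive log2 fold change, with a median of 1.02. For this and the next lists, the share to set beside such counts is 50.9% of all genes tested. Trbc1, the other constant segment of the beta chain, was at 0.201, 1.19 and 0.402 CPM with vehicle and 0.445 and 3.57 CPM with UMBO (log2 fold change 1.75, standard error 1.02). Cd247, the zeta chain, was at 0.374, 1.19 and 0.673 CPM and at 0.655 and 2.50 CPM (log2 fold change 1.08, standard error 0.707), and Pou2f1 overlaps 56.4% of its exonic length on the other strand. For Tcrg-C2, a constant segment of the gamma chain, the log2 fold change was 0.96 with a standard error of 0.932. The edgeR adjusted p values of these 3 genes were 0.497, 0.500 and 0.592.

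The proximal signaling genes had 14 of 17 tested genes with a positive log2 fold change, with a median of 0.30. Lcp2 (SLP-76), an adaptor that myeloid cells also use, was higher in both UMBO libraries, at 11.1 and 25.5 CPM, than in the vehicle libraries, at 4.85, 10.9 and 7.54 CPM (log2 fold change 1.24, standard error 0.465, edgeR unadjusted p 0.0376, adjusted p 0.497). Lck, the kinase bound by the coreceptors, was at 2.45, 6.25 and 3.06 CPM with vehicle and 2.90 and 12.2 CPM with UMBO (log2 fold change 0.94, standard error 0.678).

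The costimulatory list had 11 of 11 tested genes positive, with a median of 1.16. Its smallest p values were those of Cd48, the ligand of CD2, with a log2 fold change of 1.75 (standard error 0.695, edgeR unadjusted p 0.0457, adjusted p 0.497), Icosl, the ligand of ICOS, with 0.64 (standard error 0.275), and Pdcd1, the inhibitory receptor PD-1, with 1.66 (standard error 0.738). Cd48 and Icosl are carried by cells other than T cells. Pdcd1 was at 0.334, 1.37 and 0.732 CPM with vehicle and 1.14 and 4.0 CPM with UMBO. UMBO replicate 2 was the highest library for 11 of the 11 genes, against 40.4% of all genes tested.

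The regulatory T cell list had 5 of 7 genes positive, with a median of 0.53, and included Lrrc32 (log2 fold change 0.53), Il2ra (1.00) and Tnfrsf18 (1.60). Il2ra, the CD25 chain of the interleukin-2 receptor, was at 0.682, 1.48 and 0.933 CPM with vehicle and 1.07 and 3.07 CPM with UMBO. Lrrc32, a surface anchor for TGF-beta that endothelial cells also carry, was at 5.46, 5.82 and 5.93 CPM and at 6.26 and 10.4 CPM, with both UMBO libraries above. The list of lineage factors and homing receptors had 7 of 10 genes positive, with a median of 0.68, and Il7r (1.11) and Ccr7 (1.61) were among the genes with its smallest p values. Ccr7 guides naive T cells into lymph nodes. In edgeR 0 genes of these 5 lists had an adjusted p under 0.05. Lcp2, 1 of 17 tested proximal signaling genes, and Cd48, 1 of 11 tested costimulatory genes, were the only ones with an unadjusted p under 0.05. Of all genes tested, 7.37% had such a p. Without UMBO replicate 2 the medians were -0.52 for the partner chains, -0.35 for proximal signaling, -0.11 for costimulation, -0.21 for regulatory T cells and -0.12 for lineage and homing.

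**Figure D4:**
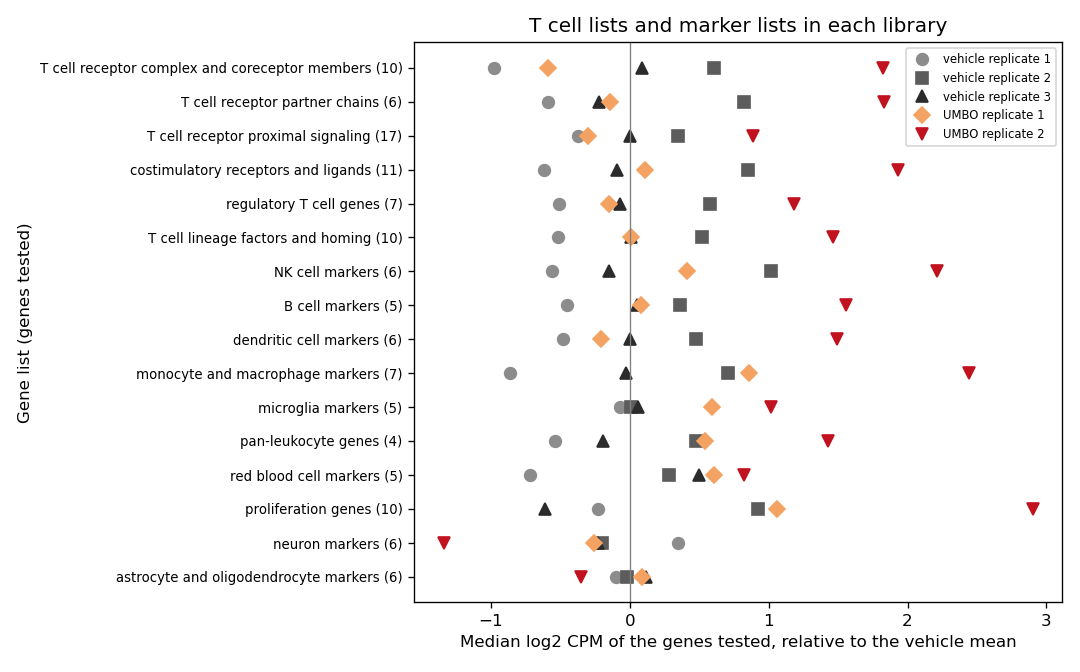
Median log2 CPM of each gene list in each library, relative to the vehicle mean, with the number of genes tested in parentheses. For the 10 T cell genes the medians are -0.98, 0.61 and 0.09 with vehicle and -0.59 and 1.82 with UMBO, in replicate order.

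UMBO replicate 2 was the highest library for 6 of 6 NK cell, 4 of 5 B cell and 7 of 7 monocyte and macrophage markers. It was the highest for 4 of 6 dendritic cell and 2 of 5 microglia markers, against 40.4% of all genes tested. The order of the other libraries varied. The 6 NK cell markers summed to 0.575, 2.27 and 0.910 CPM with vehicle and to 1.43 and 4.95 CPM with UMBO, and the 5 B cell markers to 1.30, 1.99 and 3.15 CPM and to 2.24 and 4.98 CPM. Pax5, the 1 B cell marker with a negative log2 fold change (-0.35), made up 2.27 CPM of the sum in vehicle replicate 3. The 7 monocyte and macrophage markers summed to 42.3, 131 and 67.4 CPM with vehicle and to 134 and 497 CPM with UMBO. Their median log2 fold change was 1.73, and 4 of the 7 had an edgeR unadjusted p under 0.05 with a higher level, against 5.30% of all genes tested. The 5 red blood cell markers summed to 71.8, 147 and 165 CPM with vehicle and to 181 and 217 CPM with UMBO, so both UMBO libraries lay above. In UMBO replicate 1 the median of the monocyte and macrophage markers was 0.86 above the vehicle mean on the log2 scale, while that of the 10 T cell genes was -0.59. No marker of these lists was at 0 in any library, and the part of NK cells, B cells, blood or tumor growth in the T cell gene levels was not tested.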

How the data were processed

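Bulk RNA of the right hemisphere was sequenced from 3 vehicle-treated and 2 UMBO-treated mice, 1 library each, with groups and replicate numbers taken from the sample labels. The study's methods describe groups of equal size, and the third UMBO mouse was not analysed here. The authors aligned the reads with STAR 2.7.2a (genome GRCm38), and the deposited values are whole-number counts for each Ensembl gene, not normalized. The annotation release and strand setting are not given in the sources used here. Symbols, positions and exonic lengths came from GENCODE M21 (GRCm38), which held 55480 of the 55573 genes, and promoter windows from RefSeq (GRCm38.p6).

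After TMM normalization and filterByExpr, 23592 genes were fitted in edgeR 4.0.16 under R 4.3.3 by quasi-likelihood. P values were adjusted over all of them by Benjamini and Hochberg, with a threshold of 0.05. Log2 CPM used a prior count of 2. Standard errors are those implied by the test statistic. Total counts of 59736771 to 86164159 leave a counting error that matters for genes with few reads. These include Foxp3, with 14 counts in vehicle replicate 3, and Cd3d and Cd8b1, with 22 and 23 in vehicle replicate 1. The number of mice limits the precision of every comparison. No pair of libraries was a duplicate (chi-square per gene of at least 52.2, where sampling noise gives about 1). Ratios were compared with an exact permutation test. Scripts were tested on simulated data. Alternatives were other scalings, no filter, DESeq2 1.42.0, the replicate number as a block, and each library left out.

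The 10 members and the other gene lists were chosen with earlier results of these data known. Named genes were all members, in each further T cell list the 3 of smallest p, and the 5 genes nearest to the mean CD3 profile. Some genes that the rule names are not reported here. Genes named outside this rule are marked or serve as markers or overlapping neighbors.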

Additional observations from a re-analysis of the deposited data

How the results depend on the processing

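The direction of the 9 positive genes and of Cd4, and the absence of an adjusted p under 0.05, held under DESeq2 size factors, library size only, no filter on low counts and the DESeq2 Wald test, in edgeR and DESeq2. Over all genes tested the median log2 fold change was 0.01, and 0.13 when only library size was used. Genes past an adjusted p of 0.05 numbered 0 in edgeR with all libraries, 39 with the DESeq2 Wald test, and 0 to 4543 with 1 library left out, the high value being without UMBO replicate 1, where UMBO replicate 2 stands alone and is assumed to vary like the vehicle libraries. Genes with an unadjusted p under 0.05 numbered 1738, 4100 with no filter (where 40435 genes were tested), 2738 with DESeq2, and 296 to 10165 with 1 library left out: leaving out vehicle replicate 1, 2 or 3 gave 296, 2674 or 432, and leaving out UMBO replicate 1 or 2 gave 10165 or 455. With no filter Cd4 had an edgeR unadjusted p of 0.0265 and an adjusted p of 0.437. The cause was not tested.

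With 1 library left out, log2 fold changes spanned -0.87 to 1.65 for Cd3e, -0.91 to 2.33 for Cd3d, -1.10 to 1.68 for Cd3g, -0.81 to 1.46 for Cd8a, -1.41 to 1.67 for Cd8b1, -1.02 to 1.95 for Cd2, -0.28 to 1.82 for Foxp3 and -0.32 to 1.23 for Trac, each lowest without UMBO replicate 2. The list medians ranged from -0.89 to 1.66 for the 10 T cell genes, -0.52 to 1.72 for partner chains, -0.35 to 0.89 for proximal signaling, -0.11 to 1.79 for costimulation, -0.21 to 0.93 for regulatory T cells and -0.12 to 1.30 for lineage and homing. The log2 difference of Cd8b1 to Cd8a ranged from -0.74 to 0.01.

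With the replicate number as a block, on replicates 1 and 2, edgeR gave 2163 genes with an adjusted p under 0.05 and 6002 with an unadjusted p under 0.05. Cd4 had a log2 fold change of -1.21 (edgeR adjusted p 0.0147) and Cd8a of 1.19 (edgeR adjusted p 0.0464), the other 8 genes had no adjusted p under 0.05, and 7 of the 10 had an unadjusted p under 0.05. No source ties a number to a litter or a day. Both groups share only numbers 1 and 2, and the deviations of same-numbered libraries correlated at 0.453 and 0.76 across genes. The deviations of the 2 UMBO libraries from their mean mirror each other, so these 2 correlations are not independent. With 2 shared numbers they do not establish pairs.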
